A study of Mus musculus with 20 samples.

Results

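The genes described here are the nuclear genes of oxidative phosphorylation, taken as all mouse symbols that begin with Nduf, Uqcr, Cox4 to Cox8 or Atp5, together with Sdha, Sdhb, Sdhc, Sdhd and Cycs, that had at least 10 counts in at least 5 of the 20 libraries. Of 94 genes with such a symbol, 92 passed, among the 25700 gene identifiers of each library, of which 15530 pass the same count filter. They comprised 36 subunits of complex I, 4 of complex II, 8 of complex III, 17 of complex IV, 17 of complex V, cytochrome c, and 9 assembly factors whose symbols match the pattern. Cox8b just met the filter with 10 counts in 5 libraries, whereas Cox7b2 and Cox8c reached 10 counts in 0 libraries and were left out. The rule used no contrast between the groups.

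RNA of 20 mouse libraries was sequenced after stranded poly(A) TruSeq preparation. The libraries form 4 groups of 5, titled Oxalate_late (oxalate mice on alkali therapy), Oxalate (untreated oxalate mice), Control_late (control mice on alkali therapy) and Control (untreated control mice). According to the series, the alkali was a bicarbonate supplement, and the mice with disease had crystal nephropathy, in which crystals injure the kidney. The labels give no strain, sex, age, dose, time or tissue, leave the word "late" unexplained and do not state whether each library is a separate animal. The p-values therefore rest on the variation among libraries, part of which may be technical.

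Oxidative phosphorylation makes most of the ATP of an aerobic cell. Complex I takes electrons from NADH and complex II from succinate, complex III passes them from ubiquinol to cytochrome c, complex IV gives them to oxygen, and the protons pumped on the way drive ATP synthase, complex V. A small set of core subunits is encoded in mitochondrial DNA and the rest in the nucleus. The genes described here encode most of these nuclear subunits, together with some assembly and accessory factors. In the kidney the proximal tubule and the thick ascending limb are rich in mitochondria, since reabsorption of filtered solutes is costly in ATP.

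Total counts ran from 25547840 to 39550689 per library. Levels are TMM-scaled CPM, that is counts scaled to a common library size, fold changes are on the log2 scale with their SE, and a call is an edgeR quasi-likelihood p below 0.05 after Benjamini-Hochberg adjustment over all 15430 genes tested. The 16 proximal tubule markers summed to between 29943 and 35271 CPM in the untreated control libraries, so kidney tubule RNA was abundant. Alkali-treated oxalate libraries 8 and 30 stood apart together: both lay outside the range of the other 18 libraries for 1575 genes, 10.2% of those tested. Across 15408 genes the difference of these 2 libraries from the other 3 of their group went with the GC content of the gene (Pearson r 0.44 and Spearman rho 0.45, across genes, which are not independent replicates). The pair was picked after the values were seen, and of all 190 pairs of libraries it ranks behind untreated oxalate 40 with alkali-treated oxalate 33 (22.4% of genes) and untreated oxalate 12 with 40 (14.3%). Counts of members and of the mitochondrial lists for oxalate on alkali are also given without libraries 8 and 30, and leaving out each library in turn is given where it moves a count. Adipoq, a fat cell gene, exceeded 1 CPM in 6 libraries. Of the 92 genes, 39 share a stretch of at least 100 bases at 95% identity or more with another gene's transcripts, and 12 do so over at least 50% of their transcript (Atp5o, Atp5g2, Atp5l, Ndufs3, Atp5h, Atp5f1, Ndufb11, Uqcrb, Ndufs6, Cox7c, Atp5k and Atp5c1), so the counts of these 12 are uncertain. A further limit is that 26 of the 92 overlap exons of another gene and the strand setting of the counting is not given in the sources used here.

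RefSeq promoter windows of 300 bases around the annotated start (GRCm38.p6) were found for 74 of the 92 genes. Those of Cycs and Sdhb are shown as examples with the NRF1 core among genes that were lower in oxalate libraries, Sdha and Atp5b as examples without it among genes that were also lower, and Cox6b2 as the gene that was higher. Capitals mark a match to GCGCATGC, the core bound by NRF1, a transcription factor known for respiratory chain genes, read on either strand. Each window runs 5′ to 3′ on the strand of its gene, that is chr6:50566520-50566819 on the minus strand for Cycs, chr4:140961021-140961320 on the plus strand for Sdhb, chr13:74350191-74350490 on the minus strand for Sdha, chr10:128083057-128083356 on the plus strand for Atp5b and chr7:4753045-4753344 on the minus strand for Cox6b2.
Cycs: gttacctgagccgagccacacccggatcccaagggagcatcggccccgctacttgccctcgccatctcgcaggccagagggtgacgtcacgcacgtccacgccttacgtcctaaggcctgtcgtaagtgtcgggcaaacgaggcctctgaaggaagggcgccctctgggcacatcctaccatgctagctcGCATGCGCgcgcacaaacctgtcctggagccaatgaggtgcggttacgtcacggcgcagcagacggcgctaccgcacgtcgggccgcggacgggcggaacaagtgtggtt
Sdhb: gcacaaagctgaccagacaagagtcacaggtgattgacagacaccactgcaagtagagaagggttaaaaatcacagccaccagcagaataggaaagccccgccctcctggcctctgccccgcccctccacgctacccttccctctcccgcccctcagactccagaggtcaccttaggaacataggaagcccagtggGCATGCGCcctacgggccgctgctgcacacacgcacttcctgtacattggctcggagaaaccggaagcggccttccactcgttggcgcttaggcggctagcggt
Sdha: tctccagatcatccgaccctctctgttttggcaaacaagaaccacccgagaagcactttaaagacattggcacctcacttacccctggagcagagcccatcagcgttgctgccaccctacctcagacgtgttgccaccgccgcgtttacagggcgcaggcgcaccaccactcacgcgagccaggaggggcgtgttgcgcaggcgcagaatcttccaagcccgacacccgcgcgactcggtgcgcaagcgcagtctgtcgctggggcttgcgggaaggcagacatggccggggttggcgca
Atp5b: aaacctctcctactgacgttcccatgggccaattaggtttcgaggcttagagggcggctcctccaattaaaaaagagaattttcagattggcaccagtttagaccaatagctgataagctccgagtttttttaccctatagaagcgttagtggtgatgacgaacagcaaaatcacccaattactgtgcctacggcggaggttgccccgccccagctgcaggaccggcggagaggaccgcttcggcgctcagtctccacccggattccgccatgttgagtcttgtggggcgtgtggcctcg
Cox6b2: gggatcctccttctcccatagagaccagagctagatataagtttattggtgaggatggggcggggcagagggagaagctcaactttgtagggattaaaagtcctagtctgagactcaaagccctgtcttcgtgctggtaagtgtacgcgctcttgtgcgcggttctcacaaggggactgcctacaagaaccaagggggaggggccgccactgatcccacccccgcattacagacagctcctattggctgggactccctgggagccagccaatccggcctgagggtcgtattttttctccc
The windows of Sdha, Atp5b and Cox6b2 held no match to this core. The NRF1 core was in 13 of the 74 windows (17.6%), against 3.05% of the windows of 27025 genes. These 27025 are all genes with such a window, whether or not they passed the count filter, whereas the 74 all did. AAGATGGC, the core of YY1, was in 10 (13.5%), against 3.19% of all windows. CCGGAAGT, of the ETS family with GABPA, was in 5 (6.76%), against 4.31%, and TCAAGGTCA, of the oestrogen-related receptors, was in 2 (2.703%), against 0.466%. The shares count both strands, and a match is a description of the letters only. Among the genes with a window, the NRF1 core stood in 7 of 40 that were lower in untreated oxalate libraries and in 6 of 33 that were not called.

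In untreated oxalate libraries, set against untreated control libraries, respiratory chain genes were lower in every complex, although under total-count scaling most of these genes were not called. Of 91 members tested, 50 were lower and 1 was higher, which is 54.9% lower where 23.1% of all tested genes were lower, and 1.1% higher where 26.4% of all genes were higher. The median change of the members was -0.31, against -0.00043 for all tested genes. The size of the change is relative to the scaling: with libraries scaled to their total counts, the median of all genes moved to 0.30 and that of the members to -0.03, 11 members were lower (8.48% of all genes) and 2 higher, Cox6b2 and Cox7a2l (48.6% of all genes), and 36 of the 91 changes were positive, in place of 4. Fitted on the 10 libraries compared alone, 31 were lower (21.6% of all genes). The members took 1.64% to 2.24% of the counts in untreated oxalate libraries and 2.06% to 2.32% in untreated control libraries, and these ranges overlapped. In bulk RNA, fewer cells of a type and less RNA per cell cannot be told apart.

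**Figure D1:**
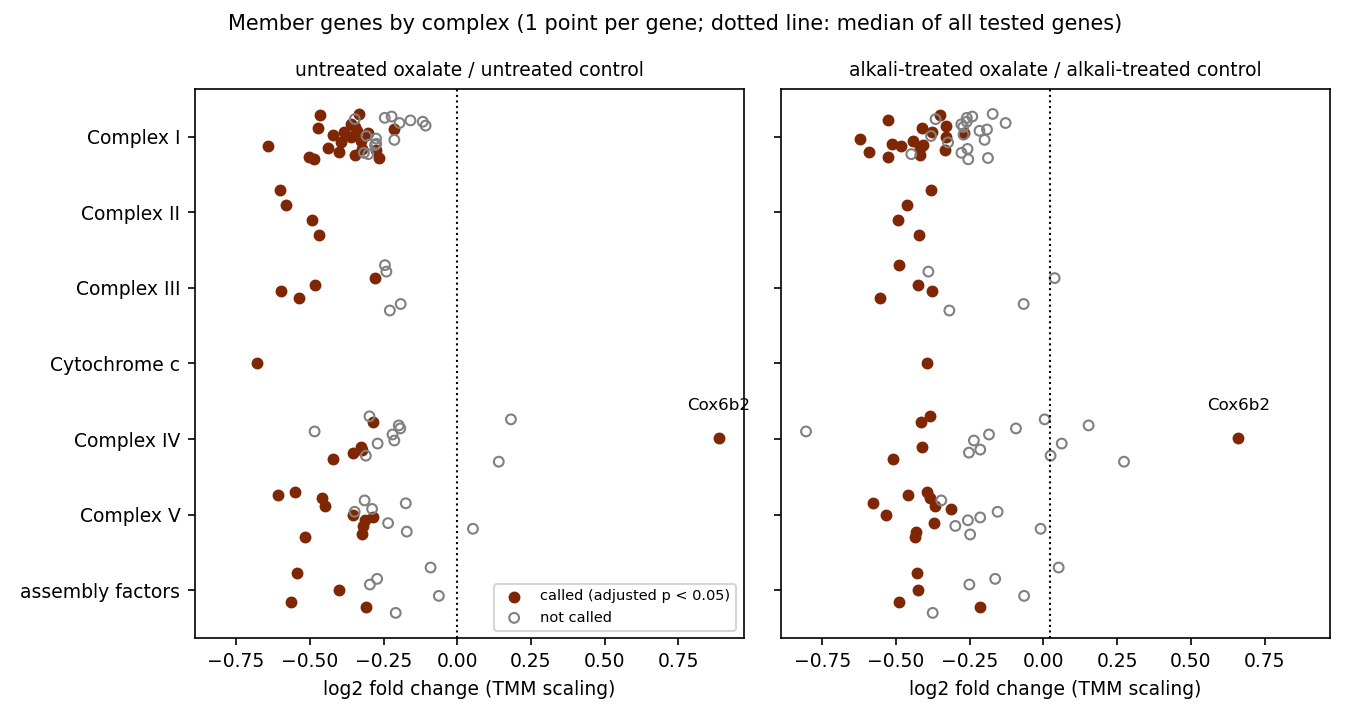
Each point is 1 of the 91 tested genes, placed by its log2 fold change under TMM scaling (horizontal axis) and its complex (vertical axis), for untreated oxalate over untreated control and for alkali-treated oxalate over alkali-treated control. Filled points were called at adjusted p under 0.05, the dotted lines are the medians of all tested genes, and Cox6b2 is the filled point on the right in both panels.

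The summed level of the 92 genes was 12756, 16435, 18745, 20889 and 22072 CPM in untreated oxalate libraries 40, 12, 3, 39 and 32, against 22551 to 26724 CPM in untreated control libraries. All 5 oxalate sums lay below all control sums. The proximal tubule markers stood in the same order over these oxalate libraries, at 8922 CPM in library 40, 15073 in 12, 17449 in 3, 19055 in 39 and 23007 in 32, against 29943 to 35271 CPM in untreated controls, and 16 of the 16 were lower. All 10 markers of macrophages and monocytes were higher, with sums of 706 to 2828 CPM in untreated oxalate and 127 to 166 CPM in untreated control libraries. All 8 tubular injury, 8 fibroblast and 6 T and NK cell markers were also higher, while of 7 markers of the thick ascending limb 2 were lower and 1 higher. The part of these cell types in the lower respiratory chain values was not tested.

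**Figure D2:**
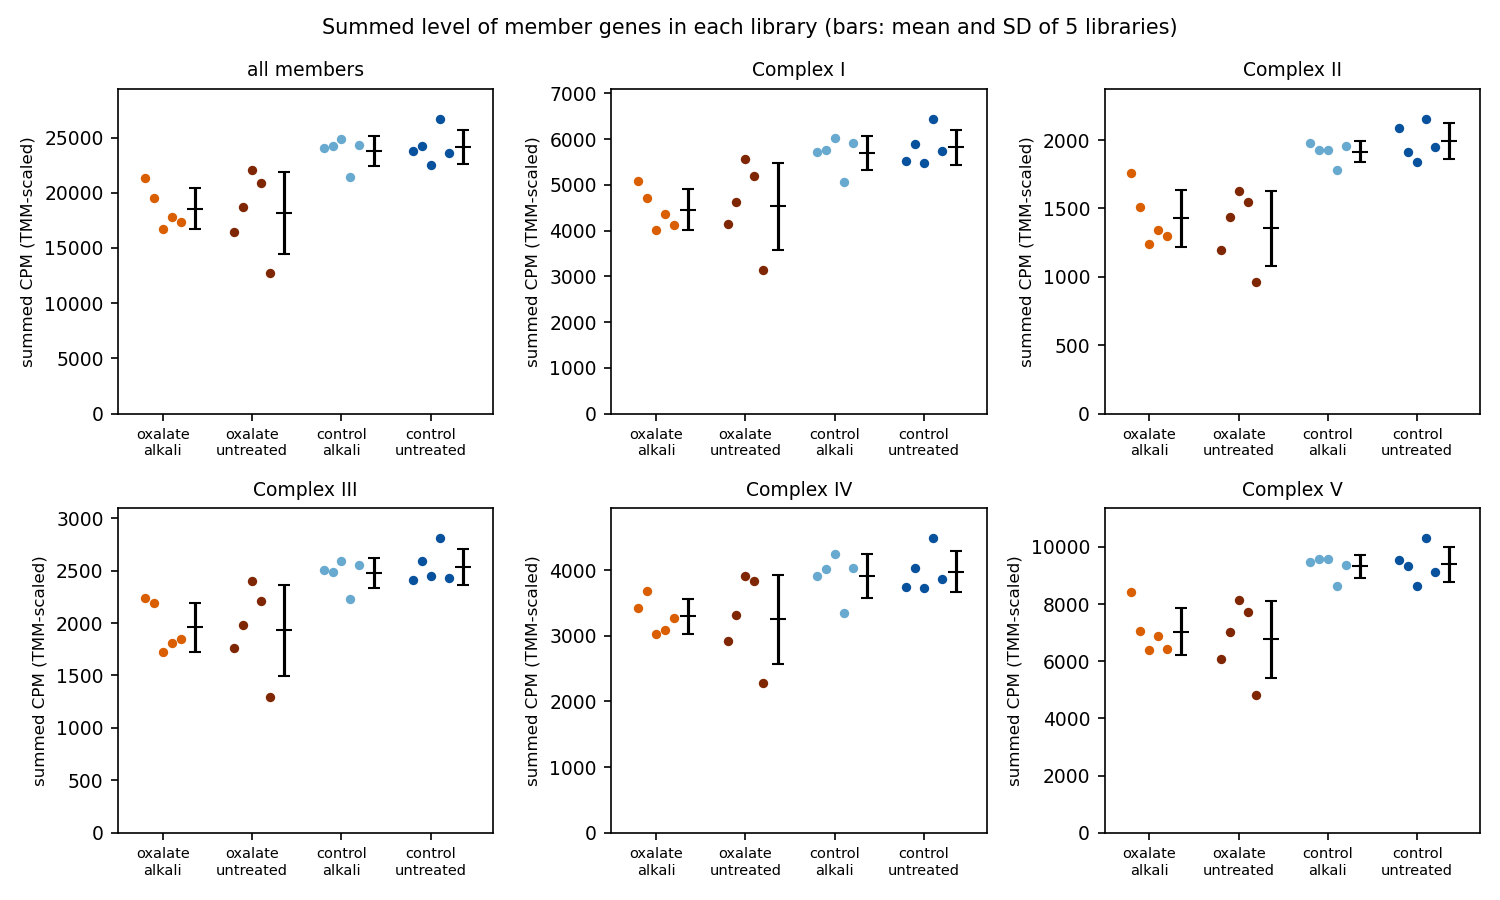
Summed TMM-scaled CPM of all members and of complexes I to V (vertical axes, from 0) in each library, by group; the bars give the mean and SD of 5 libraries. Untreated oxalate libraries spread most widely, from 12756 to 22072 CPM over all members, and lie below every untreated control library in the first panel.

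Complex II, succinate dehydrogenase, also an enzyme of the tricarboxylic acid cycle, was lower in all 4 of its subunits, with changes from -0.60 to -0.47. Sdha, the flavoprotein that oxidises succinate (ENSMUSG00000021577, GRCm38 chr13:74322254-74350280, minus strand), had 452, 539, 675, 723 and 758 CPM in untreated oxalate libraries, against 882, 904, 943, 1012 and 1033 CPM in untreated controls. The groups did not overlap, and Sdha fell by 0.60 ± 0.13 (SE; edgeR adjusted p = 0.000843). Sdhb, the iron-sulphur subunit, averaged 226 ± 53.1 CPM in untreated oxalate and 339 ± 23.3 CPM in untreated control libraries (SD, n = 5 each), again without overlap. The membrane anchors Sdhc and Sdhd fell by 0.49 ± 0.13 and 0.47 ± 0.11 (SE). The changes of all 4 genes stayed negative under total-count scaling, with Sdha at -0.32 and Sdhd at -0.18, but a negative sign is not a call.

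Cytochrome c, which shuttles electrons between complexes III and IV, had the most negative change of the members. Cycs (ENSMUSG00000063694, GRCm38 chr6:50562563-50566538, minus strand) stood at 78.9, 99.0, 112, 113 and 136 CPM in untreated oxalate libraries, against 159, 162, 174, 178 and 188 CPM in untreated controls. Every oxalate value was below every control value, and Cycs fell by 0.68 ± 0.14 (SE; edgeR adjusted p = 0.000638), or 37.5%. Under total-count scaling its change was -0.39. Counts of Cycs are less certain than most, as 35.03% of its transcript matches other transcripts at 95% identity or more.

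In complex III, 4 of 8 subunits were lower and 0 higher, though 5 of the 8 changes were positive under total-count scaling. Uqcrc2, a core protein of the complex (ENSMUSG00000030884, GRCm38 chr7:120635176-120659524, plus strand), had 261, 311, 352, 410.4 and 436 CPM in untreated oxalate libraries, against 499, 506, 519.8, 557 and 595 CPM in untreated controls. The groups did not overlap, and the change was -0.60 ± 0.12 (SE; edgeR adjusted p = 0.000628). Exons of Pdzd9 overlap 19.8% of those of Uqcrc2. The Rieske iron-sulphur protein gene Uqcrfs1 fell by 0.54 and Uqcrc1, the other core protein, by 0.48. The small subunits Uqcr10, Uqcr11, Uqcrh and Uqcrq were not called, with changes between -0.25 and -0.19.

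Complex I was lower in 22 of 36 subunits, and all 36 had a negative change, between -0.64 and -0.11, while 13 of the 36 were positive under total-count scaling. By position in the enzyme these were 6 of 10 subunits of the NADH-oxidising tip, 4 of 6 of the ubiquinone-binding part and 12 of 20 of the membrane arm, with medians of -0.30, -0.34 and -0.33. Ndufs1, an iron-sulphur subunit (ENSMUSG00000025968, GRCm38 chr1:63143596-63176833, minus strand), had 178, 205, 236, 276 and 299.9 CPM in untreated oxalate libraries, against 343, 350.4, 367, 382 and 419.7 CPM in untreated controls. No oxalate library reached a control library, and Ndufs1 fell by 0.64 ± 0.14 (SE; edgeR adjusted p = 0.000887). Ndufv1, which binds NADH and FMN, fell by 0.50 ± 0.15 (SE).
Ndufa9 and Ndufa10, accessory subunits, fell by 0.47 ± 0.11 and 0.47 ± 0.12 (SE). Of the 9 assembly factors in the set, 4 were lower: Ndufaf1, Ndufaf4, Ndufaf6 and Ndufaf7, with changes between -0.56 and -0.31. The median change of the other assembly factors of the chain, a separate list of 42 tested genes, was -0.31, with 23 lower and 0 higher.

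In complex V, 10 of 17 genes were lower. The catalytic beta subunit Atp5b, the member with the highest level per kilobase of transcript (ENSMUSG00000025393, GRCm38 chr10:128083273-128090391, plus strand), had 1427, 1889, 2171, 2317 and 2506 CPM in untreated oxalate libraries, against 2872, 3022, 3056, 3311 and 3464 CPM in untreated controls. Again the groups did not overlap, and Atp5b fell by 0.61 ± 0.14 (SE; edgeR adjusted p = 0.00138). The alpha subunit Atp5a1 fell by 0.55 ± 0.13 and Atp5s, an accessory factor, by 0.52 ± 0.11 (SE). Of the 5 subunits of the catalytic head and central stalk, Atp5d and Atp5e, both of the stalk, were not called, at -0.31 and -0.17. Under total-count scaling 5 of the 17 changes were positive, in place of 1. Atp5l, a membrane subunit, was at 0.05 and not called, and 86.8% of its transcript matches other genes.

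Complex IV was the least uniform. Among its 10 ubiquitous nuclear subunits 4 were lower, Cox5a, Cox7a2, Cox7b and Cox7c, and all 10 changes were negative, between -0.35 and -0.19. Over the 16 tested genes of the complex 3 changes were positive, against 9 under total-count scaling, where that of Cox5a was 0.003. Cox7b fell by 0.32 ± 0.10 (SE; edgeR adjusted p = 0.0135). Cox4i1, the regulatory subunit that binds ATP, was at -0.30 ± 0.14 and missed the threshold (SE; edgeR adjusted p = 0.0771), and Cox6c was at -0.21. Ndufa4, named as a complex I subunit but found in complex IV, fell by 0.42 ± 0.15 (SE; edgeR adjusted p = 0.0225).
Cox6b2, in mouse and human known as the testis isoform of subunit 6b, was the only member called higher under TMM scaling. The gene (ENSMUSG00000051811, GRCm38 chr7:4751792-4753094, minus strand) had 6.73, 7.09, 8.14, 8.27 and 9.72 CPM in untreated oxalate libraries, against 3.60, 3.81, 4.60, 4.63 and 4.93 CPM in untreated controls. The groups did not overlap, and Cox6b2 was 1.85-fold higher, a change of 0.89 ± 0.185 (SE; edgeR adjusted p = 0.000686) that was 1.19 under total-count scaling. Within libraries, the log2 ratio of Cox6b2 to the common isoform Cox6b1 was -5.30 ± 0.34 in untreated oxalate and -6.35 ± 0.26 in untreated control libraries (SD, n = 5 each; exact two-sided permutation p = 0.00794, the smallest that 252 splits allow). Adjusted over the 32 isoform ratio tests run here this p was 0.254, and 0 of the 32 passed. A single ratio at the smallest possible p cannot pass this adjustment, so the result does not decide whether the ratio shifted. The other 4 with an unadjusted exact p under 0.05 were oxalate against control on alkali, for Cox6b2 over Cox6b1 (0.75), Ndufa4l2 over Ndufa4 (0.75), Cox7a1 over Cox7a2 (0.44) and Cox6a2 over Cox6a1 (-0.51). Cox6a2 was low in all groups, near the 0.5 CPM added to each value before the ratio was taken. The log2 ratio of Cox7a1 to Cox7a2 was highest in alkali-treated oxalate library 33, at -3.61.

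**Figure D3:**
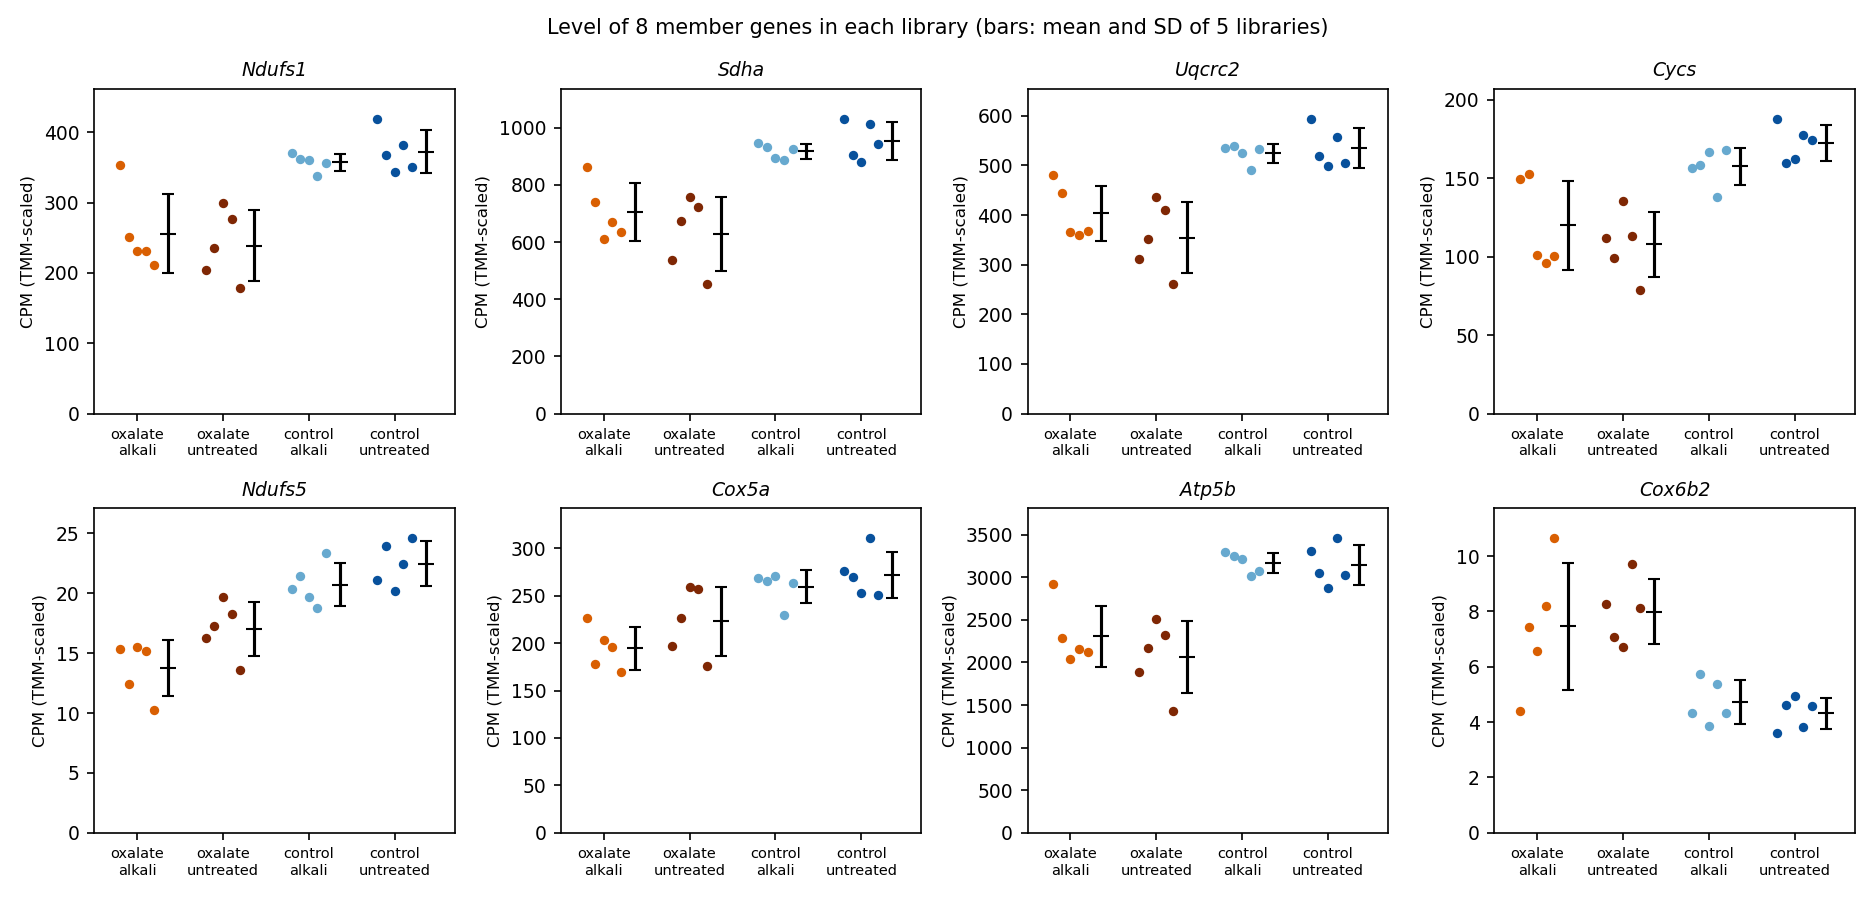
TMM-scaled CPM of 8 members (vertical axes, from 0) in every library, by group; the bars give the mean and SD of 5 libraries. In 6 of the 8 panels (Ndufs1, Sdha, Uqcrc2, Cycs, Ndufs5 and Atp5b) all untreated oxalate libraries lie below all untreated control libraries, and in that of Cox6b2 they lie above.

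The groups did not overlap, with untreated oxalate below untreated control, for 24 of the 91 members (26.4%), against 15.4% of all tested genes. They did not overlap in the other direction for 1 member, Cox6b2 (1.1%), against 18.5% of all genes. Across the 91 members the change went with the length of the principal transcript (Pearson r -0.42, Spearman rho -0.50) and with the average level (Pearson r -0.47, Spearman rho -0.39), longer and more abundant members being lower. The points share libraries, and the figures are descriptive. Without the 6 libraries above 1 CPM of Adipoq, among them untreated oxalate library 32, which had the highest member sum of its group, 62 members were lower (25.9% of all genes) at a median of -0.48.

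Of the genes encoded in mitochondrial DNA, 7 of 10 tested were lower and 0 higher, with a median of -0.51. Their sums were 61834 to 94561 CPM in untreated oxalate and 104387 to 124252 CPM in untreated control libraries, without overlap. Poly(A) selection catches mitochondrial transcripts unevenly, so their level is not compared with that of nuclear genes. The smallest p was that of mt-Nd6, at -0.84 ± 0.16 (SE; edgeR adjusted p = 0.000299). Mitochondrial ribosomal proteins were lower in 39 of 78 genes and higher in 2, with a median of -0.27, and 11 of 17 carriers and pores were lower, with a median of -0.41. Cyc1, the cytochrome c1 of complex III, which the symbol rule leaves out, fell by 0.44 ± 0.14 (SE; edgeR adjusted p = 0.0138). Of 16 regulators of respiratory genes 10 were lower and 1 was higher. Among those lower, the mitochondrial deacetylase Sirt3 changed by -0.75 ± 0.15 and Gabpa, which binds ETS sites, by -0.42 ± 0.09 (SE).

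On alkali, oxalate libraries set against control libraries gave called decreases in every complex, and Cox6b2 again higher. Without libraries 8 and 30, complex III had 0 calls. The only call of complex IV was then Cox6a2, a tissue-restricted isoform at a low level, and that of complex V the accessory factor Atp5s. With all libraries under total-count scaling, 4 of 36 changes in complex I, 2 of 8 in complex III, 8 of 16 in complex IV and 3 of 17 in complex V were positive. With all libraries under TMM scaling, 44 of 91 members were lower (48.4%, where 17.1% of all tested genes were lower). The 1 member that was higher was Cox6b2, where 23.4% of all genes were higher. The median of the members was -0.33, against 0.024 for all genes. Under total-count scaling the median of all genes moved to 0.24 and that of the members to -0.13, with 17 lower (6.18% of all genes) and 4 higher, Uqcrb, Ndufa4l2, Cox6b2 and Cox7a2l (36.6% of all genes). Of the 91 members, 33 were lower in both oxalate comparisons, 17 in the untreated one alone and 11 on alkali alone, but a call in 1 comparison and not in the other is no test of a difference. The 2 comparisons share no library, though all 20 libraries share 1 estimate of spread.

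The count on alkali depended on single libraries. It was 22 without alkali-treated oxalate library 8, 25 without library 33, 29 without alkali-treated control library 37 and 69 without untreated oxalate library 40, which is in neither group compared but shares the estimate of spread. The shares of all genes lower in these fits are not given here, so these counts alone tell nothing particular to the members. Without the 6 libraries above 1 CPM of Adipoq it was 22 (6.13% of all genes), with 0 higher (14.5% of all genes). Without both libraries 8 and 30 it was 10, with 0 higher, at a median of -0.34, where 4.5% of all genes were lower and 16.1% higher. Of these, 3 were of complex I, 3 of complex II, 1 each of complexes IV and V, Cycs and an assembly factor, while complex III had 0 called by edgeR and 5 at an unadjusted p under 0.05. The 10 were Ndufb3, Ndufb11, Ndufs5, Sdhb, Sdhc, Sdhd, Cycs, Atp5s, Ndufaf1 and Cox6a2. Cox6b2 was then at 0.44 and not called. Of the 10, 9 were also lower in untreated oxalate libraries in that fit, where 43 members were lower in the untreated comparison alone.

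Complex II was lower in all 4 subunits on alkali too (in 3, all but Sdha, without libraries 8 and 30), with changes from -0.49 to -0.38 that stayed negative under total-count scaling. Sdha had 612, 634, 672, 740.1 and 864 CPM in alkali-treated oxalate libraries, against 887, 894, 925, 935 and 947 CPM in alkali-treated controls. The highest oxalate value, of library 2, came near the lowest control without reaching it. Sdha changed by -0.38 ± 0.13 (SE; edgeR adjusted p = 0.0246), and Sdhd, with the smallest p of the complex, by -0.42 ± 0.11 (SE; edgeR adjusted p = 0.00652). Complex I was lower in 17 of 36 subunits, complex III in 4 of 8 and complex V in 10 of 17.
Ndufs5, an accessory subunit of the membrane arm of complex I, had the smallest p of the members. It had 10.3, 12.4, 15.2, 15.3 and 15.6 CPM in alkali-treated oxalate libraries, against 18.8, 19.7, 20.3, 21.5 and 23.4 CPM in alkali-treated controls. The groups did not overlap, and Ndufs5 fell by 0.59 ± 0.12 (SE; edgeR adjusted p = 0.000952). It was also lower without libraries 8 and 30, at -0.44. Ndufb6, whose exons partly overlap those of Smim27, fell by 0.62 ± 0.15 and Uqcrfs1 by 0.55 ± 0.15 (SE). Neither Ndufb6 nor Uqcrfs1 was called without libraries 8 and 30.

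Cycs had 95.7, 100.4, 101, 149 and 153 CPM in alkali-treated oxalate libraries, against 138, 157, 159, 167 and 168 CPM in alkali-treated controls. Libraries 2 and 30 of the oxalate group lay inside the control range, and Cycs changed by -0.40 ± 0.14 (SE; edgeR adjusted p = 0.0308). Cox5a, a subunit of complex IV on its matrix side, had 169, 178, 196, 203 and 227 CPM in alkali-treated oxalate, against 229.8, 264, 265, 269 and 270.5 CPM in alkali-treated control libraries. These groups did not overlap, and the change was -0.42 ± 0.11 (SE; edgeR adjusted p = 0.00708). Cox6b2 had 4.41, 6.58, 7.42, 8.20 and 10.7 CPM in alkali-treated oxalate, against 3.85, 4.32, 4.32, 5.39 and 5.73 CPM in alkali-treated control libraries. Library 2 lay inside the control range, and Cox6b2 was 1.58-fold higher, a change of 0.66 ± 0.18 (SE; edgeR adjusted p = 0.00952). Cox4i1 changed by -0.38 ± 0.14 (SE; edgeR adjusted p = 0.0314), while Cox5b (0.15) and Cox8a (0.02) were not called. Cox5a, Cox6b2 and Cox4i1 were not called without libraries 8 and 30.

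The summed level of the 92 genes was 16711 to 21361 CPM in alkali-treated oxalate and 21449 to 24854 CPM in alkali-treated control libraries, without overlap. As a share of counts this was 1.88% to 2.05% in alkali-treated oxalate and 2.07% to 2.28% in alkali-treated control libraries. The groups did not overlap for 25 members, all with oxalate below control (27.5%), against 5.51% of all tested genes. With libraries 8 and 30 left out this held for 35 members, against 8.26% of all genes. Of the 16 proximal tubule markers 10 were lower, and 9 of 10 macrophage and monocyte markers were higher, as many as without libraries 8 and 30. The proximal tubule sum ran from 13182 CPM (library 33) to 29652 CPM (library 2) in alkali-treated oxalate and from 31576 to 32736 CPM in alkali-treated control libraries, and its part in the members' values was not tested. Without libraries 8 and 30, 1 of the 16 markers was called lower, at a median of -0.70 in place of -0.66.
Of the genes encoded in mitochondrial DNA, 1 of 10 was lower on alkali, mt-Nd6, at a median of -0.04 for the list. Libraries 30 and 8 had the highest mitochondrial sums of the oxalate group, at 144844 and 119045 CPM, against 91693 to 114807 CPM in alkali-treated controls. Without these 2 libraries the median was -0.20 and the call was lost, leaving 0 called by edgeR and 0 at an unadjusted p under 0.05. Among the other lists on alkali, 20 of 42 further assembly factors, 12 of 17 carriers and pores, 23 of 78 mitochondrial ribosomal proteins and 6 of 16 regulators were lower, with 0 higher in each, and medians of -0.26, -0.29, -0.23 and -0.20. Without libraries 8 and 30 these counts were 7, 2, 8 and 2. For alkali within oxalate mice these 4 lists held 0 calls.

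Alkali within oxalate mice changed no member past the threshold. Of 91 members 0 were called, where 4.08% of all tested genes were, and DESeq2 called 0 as well, where it called 7.96% of all genes. At an unadjusted p under 0.05 there were 7 (Ndufv3, Uqcrb and Cox5b higher, Ndufa2, Ndufb6, Ndufs5 and Atp5e lower), where 20.5% of all genes had such a p. The median change of the members was 0.01, against 0.0060 for all genes. The 3 members with the greatest change were Ndufa2 at -0.42 ± 0.17, Atp5e at -0.39 ± 0.18 and Ndufb6 at -0.38 ± 0.15 (SE; edgeR adjusted p = 0.148, 0.228 and 0.162). The sums were 16711 to 21361 CPM in alkali-treated oxalate and 12756 to 22072 CPM in untreated oxalate libraries, and overlapped. For Sdha the difference was 0.16 ± 0.13, for Uqcrc2 0.19 ± 0.12, for Cycs 0.15 ± 0.14 and for Atp5b 0.16 ± 0.14 (SE), none of them called. Atp5l was the 1 member whose groups did not overlap, at 9.75 to 11.7 CPM in alkali-treated and 12.4 to 13.2 CPM in untreated oxalate libraries (1.61% of all genes). Without libraries 8 and 30, 0 members were called (0.509% of all genes), at a median of -0.01. With library 2 of the alkali-treated group left out, 1 member was called lower, Ndufb6 at -0.53 (edgeR adjusted p = 0.0398), and with library 40 of the untreated group left out, Ndufa2 at -0.56 (edgeR adjusted p = 0.0263). A missed threshold does not show that the groups were alike.
Over the same contrast 5 of 8 tubular injury markers were lower, among them Vcam1 at -1.42 ± 0.25 (SE; edgeR adjusted p = 0.00522), 3 of 10 macrophage and monocyte markers were lower, and 1 proximal tubule marker, Slc6a19, was higher at 0.75 ± 0.18 (SE; edgeR adjusted p = 0.0231).

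Within alkali-treated oxalate mice, libraries 8 and 30 differed from the others in several members. Cox5b, a subunit of complex IV, had 266 and 279 CPM in libraries 8 and 30, against 151, 152 and 153 CPM in libraries 2, 33 and 5 of the same group. The other 15 libraries of the series lay between 111 and 201 CPM. Cox8a had 435 and 527 CPM in these 2 libraries, against 268, 282 and 308 CPM in the rest of their group.
Atp5e, the epsilon subunit of ATP synthase, had 84.8 and 91.1 CPM, against 137, 171 and 174 CPM, and Ndufc1 of complex I had 34.8 and 38.8 CPM, against 61.8, 63.1 and 73.1 CPM. Both libraries were outside the range of the other 18 for 9 of the 91 members, 3 above (Cox5b, Cox8a and Cox7a2l) and 6 below (Atp5e, Ndufc1, Ndufb4, Ndufb6, Atp5mpl and Ndufs5). That is 9.89% of the members, near the 10.2% of all genes. Over the 91 members the difference went with gene GC content at Pearson r 0.34 and Spearman rho 0.34. The part of GC content in these values was not tested.

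**Figure D4:**
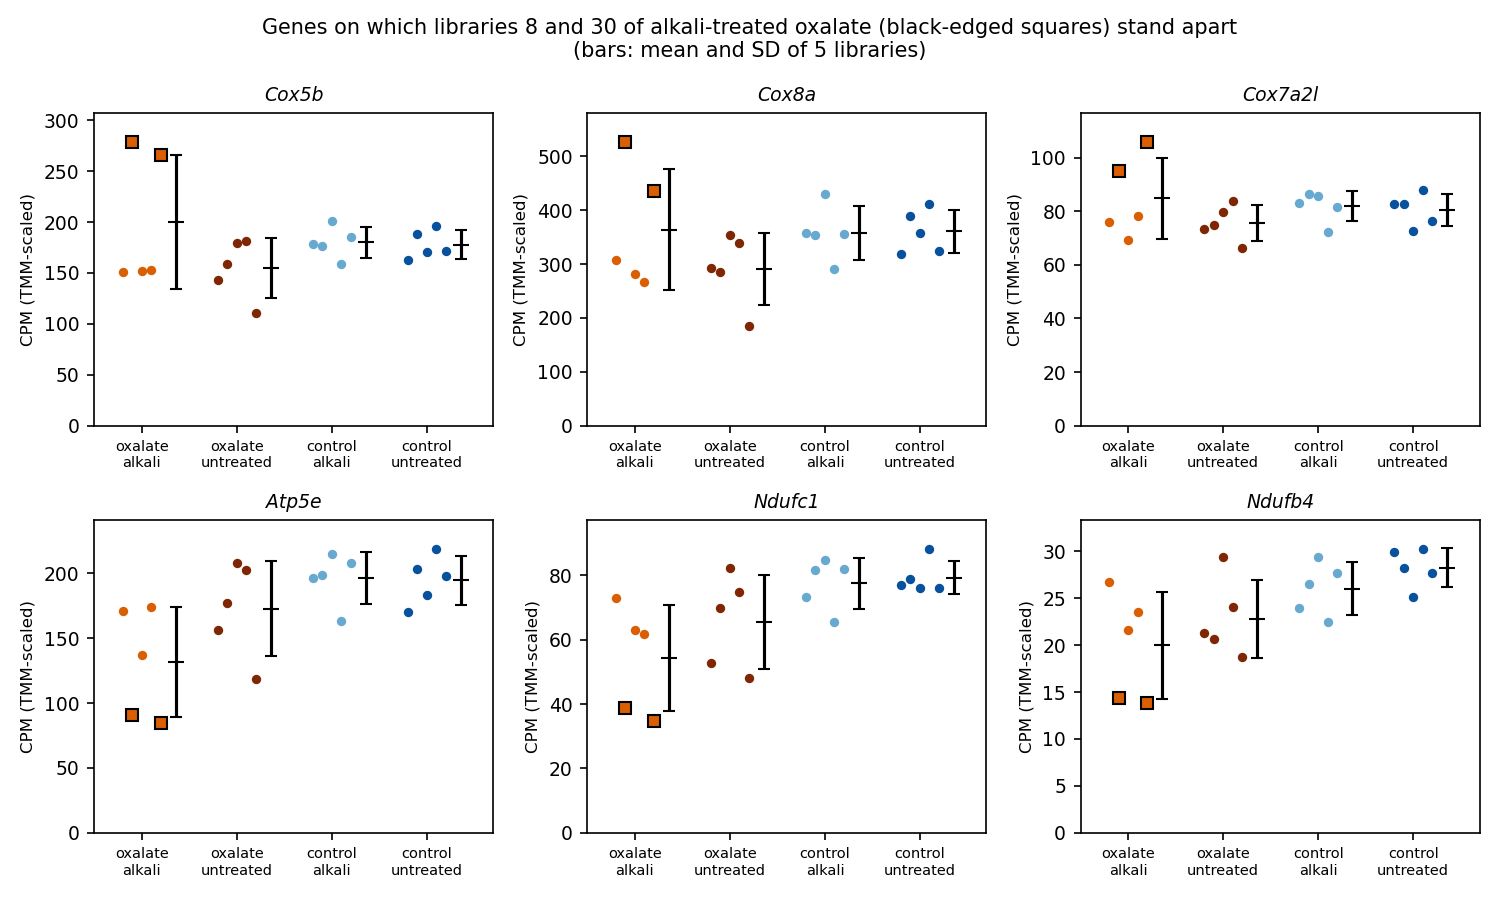
TMM-scaled CPM (vertical axes, from 0) of 6 members in every library, by group, chosen after the values were seen; black-edged squares are alkali-treated oxalate libraries 8 and 30, and the bars give the mean and SD of 5 libraries. The squares lie above all other libraries for Cox5b, Cox8a and Cox7a2l, and below them for Atp5e, Ndufc1 and Ndufb4.

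Alkali within control mice changed 0 of 91 members, where 0% of all tested genes were called by edgeR. DESeq2 also called 0 members, where it called 0.0195% of all genes, and 0 had an unadjusted p under 0.05, against 2.52% of all genes. The changes lay between -0.17 (Atp5l) and 0.13 (Cox6b2), at a median of -0.02. Cycs changed by -0.13 ± 0.14 and Atp5s by -0.14 ± 0.11 (SE). The summed level was 21449 to 24854 CPM in alkali-treated and 22551 to 26724 CPM in untreated control libraries, overlapping.

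The difference between the alkali effects in oxalate and in control mice, tested as an interaction, was called for 0 of 91 members, where 0% of all genes were called. The unadjusted p was under 0.05 for 0 members by edgeR and 1, Uqcrb, by DESeq2, which called 0 members and 0.267% of all genes. The greatest differences were Atp5e at -0.40 ± 0.26, Ndufa2 at -0.37 ± 0.23 and Cox5b at 0.35 ± 0.24 (SE; smallest edgeR adjusted p of any member 0.558). Without libraries 8 and 30, 0 members were called as well. In simulated counts the interaction test recovered 17.9% of 1.5-fold changes, so a missed threshold does not show that the effects were alike.

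Of the isoforms restricted to certain tissues, Cox6a2 and Cox4i2 were low in all groups. Cox6a2 had 0.278 to 1.93 CPM and Cox4i2 0.508 to 1.24 CPM over the 20 libraries, and neither was called with all libraries in the fit, though Cox6a2 was lower on alkali without libraries 8 and 30. Ndufa4l2, a paralogue of Ndufa4 induced by hypoxia, had 3.17 to 4.84 CPM in untreated oxalate and 2.46 to 4.11 CPM in untreated control libraries, overlapping. Cox8b, the muscle and brown fat isoform of subunit 8, had 9.63 CPM in alkali-treated oxalate library 33, 1.48 CPM in untreated oxalate library 32 and 20.3 CPM in untreated control library 26, and at most 0.436 CPM in the other 17 libraries. The 5 brown adipose markers summed to 169, 29.0 and 387 CPM in these 3 libraries and to 5.66 to 12.6 CPM in the others. Cox7a1, the isoform of subunit 7a of the same tissues, was also highest in libraries 33 (17.6 CPM) and 26 (16.97 CPM), against 6.91 to 12.7 CPM elsewhere. Cox8b was too low for the fit and was not tested.

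**Figure D5:**
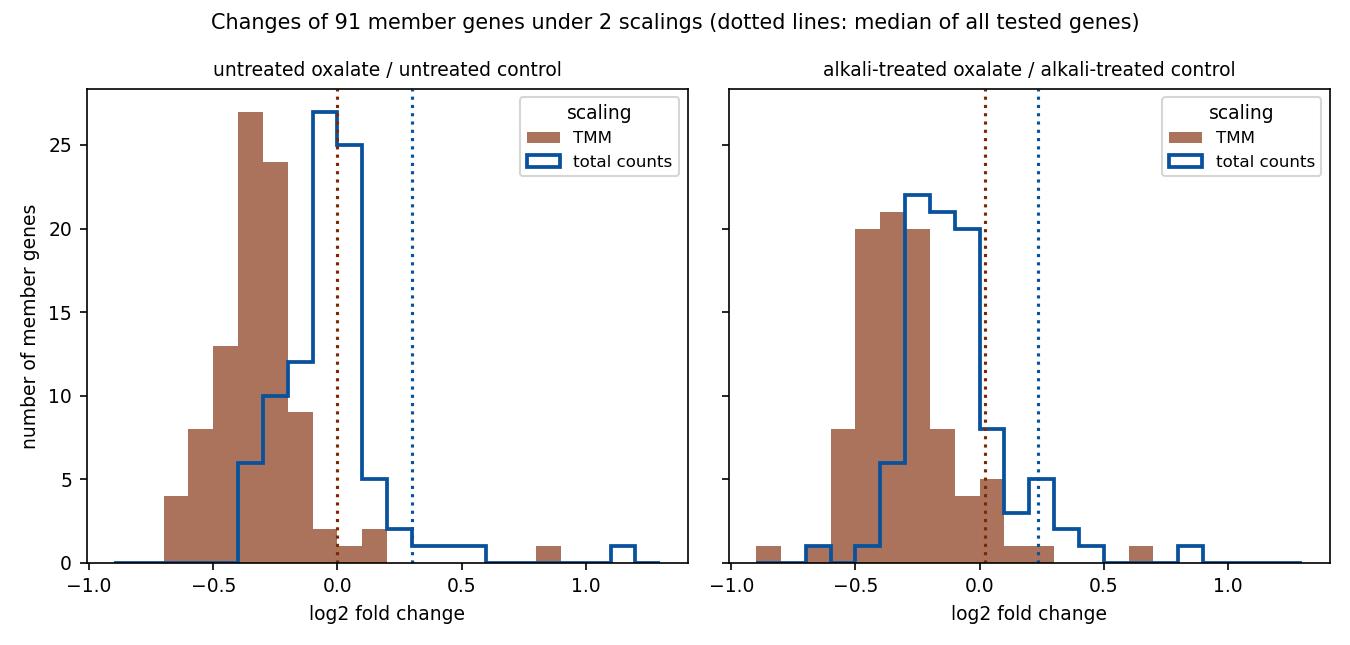
Number of members (vertical axis) by log2 fold change (horizontal axis) for both oxalate comparisons, with libraries scaled by TMM (filled) or by total counts (outline); dotted lines are the medians of all tested genes. Total-count scaling moves the members and all genes up together, to medians of -0.03 and 0.30 for untreated oxalate over untreated control.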

How the data were processed

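Per the labels' protocols, poly(A) RNA of 20 mouse libraries was prepared with a stranded TruSeq kit. Per the submitters' processing notes, bcl2fastq 2.19, Trimmomatic, STAR 2.7.1, featureCounts and edgeR were used. The deposited values are raw read counts per gene. The notes name the human build GRCh38.p5, whereas the identifiers are mouse, so the authors' build is unresolved. Coordinates are GRCm38, from GENCODE M21, which holds 25664 of the 25700 identifiers, and the 36 others took at most 0.0226% of counts.

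Counts were fitted with edgeR 4.0.16 (R 4.3.3, limma 3.58.1). Its filterByExpr (minimum count 10) kept 15430 genes and removed 10270. The fit used TMM scaling and robust quasi-likelihood over all 4 groups of 5 libraries with no covariate, at a common biological coefficient of variation of 0.2. P-values were adjusted by Benjamini-Hochberg over all genes tested. Standard errors are the change divided by the square root of F. Isoform ratios used log2(CPM + 0.5) for 8 pairs over 4 comparisons, with exact two-sided permutation tests. The fit was checked on simulated counts with changes set into genes of all levels. Of 67 genes changed 1.5-fold it recovered 50.7% for untreated oxalate and 44.8% for oxalate on alkali. For alkali it recovered 35.8% in oxalate and 53.7% in controls, and for the interaction 17.9%. Of 2-fold changes it recovered 58.2% to 86.6%. Recovery for the members alone was not tested. Alternatives were DESeq2 1.42.0, total-count scaling, no filter or 10 counts in 5 libraries, only the groups compared, each library left out, libraries above 1 CPM of Adipoq left out, a pseudocount of 0.1 CPM and, chosen after seeing the data, libraries 8 and 30 of alkali-treated oxalate left out.

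The members and lists were chosen with earlier results of these data known, and the promoter motifs were chosen once the files were at hand. Members named are a panel of catalytic, carrier and isoform genes, the 3 called members of smallest p per complex and comparison, called members against the main direction (up to 6) and the 3 largest changes per comparison among genes averaging at least 1 on the log2 CPM scale. Other members named were chosen after their values were seen: those in which libraries 8 and 30 stood apart, and those named in a count or because they were not called. Of other gene lists at most 2 called genes of smallest p are named. Promoters are from RefSeq on GRCm38.p6. No protein or genome sequence was used here.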

Additional observations from a re-analysis of the deposited data

Results flagged for a closer look

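Of 168 groups of 5 libraries checked, 18 (10.7%) held a library that stood apart. Its distance to its nearest neighbour was more than 0.71 of the range of the group, where chance gives about 1 in 20. The checks share libraries and are not independent, so this share is no test of an excess. All values are in CPM. Alkali-treated oxalate library 2 was high for Atp5b (2926, nearest 2281), Atp5s (15.15, nearest 11.54), Ndufs1 (353.1, nearest 250.8) and Sdhd (281.4, nearest 228.0). Alkali-treated oxalate library 30 was high for Cox6a2 (1.767, nearest 0.6544).

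Alkali-treated control library 4 was low for Cox4i1 (550.8, nearest 671.8), Cox5a (229.8, nearest 263.9), Ndufa9 (202.5, nearest 222.7), Sdhc (322.3, nearest 372.0) and Uqcrfs1 (356.2, nearest 402.4), and for the sum over all members (21450, nearest 24030). Alkali-treated control library 7 was high for Atp5s (19.28, nearest 15.28), and library 1 of that group stood apart for Ndufa4l2 (3.595, nearest 3.333).

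Untreated control library 19 was high for Cox6a2 (1.925, nearest 1.176), and library 35 for Sdhb (379.4, nearest 338.1). Cox8b was high in alkali-treated oxalate library 33 (9.627, nearest 0.0505), untreated oxalate library 32 (1.485, nearest 0.1392) and untreated control library 26 (20.29, nearest 0), which are the 3 libraries with the highest sums of brown adipose markers.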

How the results depend on the processing

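Under total-count scaling, 11 members were lower and 2 higher in untreated oxalate against untreated control libraries, and on alkali 17 were lower and 4 higher. With only the 10 libraries of a comparison in the fit, 31 were lower in untreated oxalate (21.6% of all genes) and 63 in oxalate on alkali (17.4% of all genes). Without the libraries above 1 CPM of Adipoq, 22 were lower and 0 higher on alkali, and without libraries 8 and 30, an alternative chosen after seeing the data, 10 were lower and 0 higher. The cause was not tested. Leaving out each library in turn gave 34 to 68 lower in untreated oxalate, 22 to 69 lower in oxalate on alkali and 0 to 1 lower for alkali within oxalate mice, and the other counts did not move. The shares of all genes in these fits are not given here. Cox5a in untreated oxalate turned to 0.003 under total-count scaling (edgeR adjusted p = 0.978). With DESeq2, no filter or the filter of 10 counts in 5 libraries, each count stayed within 1.5 times its value. Of 3577 values of named members and isoform ratios under alternatives, 3118 for members and 352 for ratios stayed on the same side of the threshold, 95 lost a call, 11 gained one and 1 reversed, and 143 that were never called changed sign. The ratios could hardly cross the threshold, as the smallest possible exact permutation p, 0.00794, adjusted to 0.254 over 32 tests. Their count is therefore no sign of stability. No paired analysis was possible because the replicate numbers of the labels are all different between the groups. The effect of depth was not tested, and the lowest members were Cox8b, Cox4i2 and Cox6a2.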
